A study of Mus musculus with 6 samples.

Results

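The genes described here are 35 genes of satellite glia and of the Schwann cell lineage, read from bulk RNA-seq of reporter-sorted cells of mouse dorsal root ganglia. They were chosen by symbol from a list of glial names, by a rule that used no measured value, and all 35 were found among the 41388 genes of the deposited count files (Gpr126 under its current symbol, Adgrg6). The 6 libraries, 3 female (A, B, C) and 3 male (A, B, C), share 1 kind of animal: C57BL/6 embryos at 18.5 days post coitum whose genotype is labelled RetFloxedEGFP / Scn10a<tm2(cre)Jnw>, with male C labelled only RetFloxedEGFP/ in the genotype field and its sampled component without a segment level, although its title names the same cross and its protocol the same segments. Cells of T11-S1 ganglia were sorted by FACS for a fluorescence reporter, and the study's only labelled contrast is sex. Ganglia were pooled: each female library came from 40 ganglia of 2 embryos, male A from 40 ganglia of 2 embryos, male B from 60 ganglia of 3 embryos and male C from 20 ganglia of 1 embryo.

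The Cre recombinase is made from the Scn10a locus, which encodes the sodium channel NaV1.8 of nociceptors, and the floxed allele sits at Ret, a growth factor receptor gene of many of those neurons. The sort therefore aims at neurons, and the labels give neither the number of Ret copies that carried the allele nor the gate. No unsorted, EGFP-negative or Cre-negative library was analysed here, so every value below is a level within the sorted cells, with no background measured in other cells. In bulk samples, fewer cells of a type and less RNA per cell cannot be told apart.

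Satellite glia wrap the cell bodies of sensory neurons, and Schwann cells ensheath their axons. Both arise from neural crest precursors that keep Sox10, the transcription factor that holds crest-derived cells in the glial lineage. Satellite glia are known for the radial glial fatty acid binding protein Fabp7, the potassium channel Kcnj10 and glutamine synthetase (Glul). Schwann cells about to myelinate switch on Pou3f1 and then the sheath genes Mbp, Pmp22, Mag and Prx. Several names on the list are also used by neurons, among them Gpm6b, Zeb2, Fbxo2 and transcripts from the Mbp locus known as golli, and a count per gene does not separate these sources.

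The 3 promoters printed next belong to Fabp7, whose libraries ran in the reverse order of Sox10, and to Prx and Cnp, sheath genes with positive slopes on Sox10; their values follow. They are from RefSeq on GRCm38.p6, 250 bases before to 50 bases after the annotated start, 5′ to 3′ on the gene's strand. The coordinates are chr10:57784673-57784972 on the plus strand for Fabp7, chr7:27499074-27499373 on the plus strand for Prx and chr11:100574689-100574988 on the plus strand for Cnp. Capitals mark ACAAAG or ACAATG, core letters bound by SOX proteins, and the octamer ATGCAAAT bound by POU proteins such as Pou3f1, each searched on both strands with no overlap between matches. The motifs were picked after the results were known.
Fabp7: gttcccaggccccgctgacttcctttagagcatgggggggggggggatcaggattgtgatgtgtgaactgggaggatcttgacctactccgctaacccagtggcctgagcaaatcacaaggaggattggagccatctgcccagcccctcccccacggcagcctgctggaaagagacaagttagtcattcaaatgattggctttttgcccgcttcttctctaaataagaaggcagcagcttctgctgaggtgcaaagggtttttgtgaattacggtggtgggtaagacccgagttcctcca
Prx: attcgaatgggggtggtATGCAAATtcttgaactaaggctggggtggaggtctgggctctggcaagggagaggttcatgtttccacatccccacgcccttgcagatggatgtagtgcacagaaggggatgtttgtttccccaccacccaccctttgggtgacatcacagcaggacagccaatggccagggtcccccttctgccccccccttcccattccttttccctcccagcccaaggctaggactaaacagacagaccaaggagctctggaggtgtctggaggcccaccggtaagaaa
Cnp: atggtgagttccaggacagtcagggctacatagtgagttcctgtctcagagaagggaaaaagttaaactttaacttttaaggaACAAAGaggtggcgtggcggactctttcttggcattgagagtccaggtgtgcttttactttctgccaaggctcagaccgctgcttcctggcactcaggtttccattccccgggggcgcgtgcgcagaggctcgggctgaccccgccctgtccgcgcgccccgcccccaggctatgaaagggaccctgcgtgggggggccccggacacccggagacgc
The Prx window held the octamer, the Cnp window held ACAAAG, and the Fabp7 window held none of the 3 motifs. Of 32851 mouse promoters in the same table, 28.6% held at least 1 of the 2 SOX cores (18.7% ACAAAG and 12.6% ACAATG) and 1.74% held the octamer. Counted by gene, 31.7% of 27025 genes held a SOX core and 1.97% the octamer in at least 1 of their promoters. Among the 29 listed genes with a promoter there, 8 genes (27.6%) held a SOX core and 1 gene, Prx, held the octamer. A match is a run of letters and not evidence of binding.

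Library depth ranged between 15693013 and 24033601 counts, with 19526 to 21755 genes that had at least 1 read. Female C and male B stood together: their log2 CPM correlated at 0.99 across genes against 0.965 to 0.985 for every other pair, and they held values of 36.8 and 42.6 on the first principal component (37.3% of the variance) where the other 4 libraries held -34.8 to -0.961. Neuronal genes were high, with pan-neuronal genes at a median of 329 RPKM and nociceptor genes at 93.3 RPKM, against 4.27 RPKM for the 35 listed genes (RPKM is CPM divided by exon length in kilobases, the scale used here to compare levels between genes). Summed over the 35 genes, CPM (each library's counts scaled to the same total, with TMM factors) were 3540, 3100 and 3940 in the female libraries and 3110, 4190 and 3720 in the male libraries, so the sexes overlapped. Of the marker lists for other cells, fibroblast and meningeal genes summed to between 446 and 757 CPM, with Dcn at 133 RPKM, and red blood cell genes to between 34.7 and 1020 CPM; both are taken up below. Macrophage genes summed to between 2.49 and 3.66 CPM and endothelial and pericyte genes to between 67.6 and 91.3 CPM. Central glia genes summed to between 12.6 and 15.5 CPM. Of that list, the oligodendrocyte factors Olig1 and Olig2 had 0 reads throughout. Its other members were detected, with means of 1.54 RPKM for Aqp4, 0.74 for Mog, 0.622 for Aldh1l1 and 0.291 for Pdgfra.

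The 35 genes were not at one level. Pmp22 averaged 346 ± 43.8 RPKM, Fabp7 311 ± 56.1, Apoe 175 ± 72.2 and Sparc 161 ± 37.0 (SD, n = 6 libraries), and these were the 4 genes at or above 100 RPKM. Pmp22 (ENSMUSG00000018217) lies on chromosome 11 (63128982 to 63159547, plus strand), Fabp7 (ENSMUSG00000019874) on chromosome 10 (57784881 to 57788450, plus strand) and Apoe (ENSMUSG00000002985) on chromosome 7 (19696109 to 19699166, minus strand); gene coordinates are GRCm38 as the files give them and counts cover all exons. Of the 35 genes, 26 averaged 1 RPKM or more and 9 averaged less. In all, 5 of the listed names were too low for the test: Sox8, Gjb1, Gfap, L1td1 and Mia, leaving 30 tested genes. The plot of levels by library shows the whole range.

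**Figure D1:**
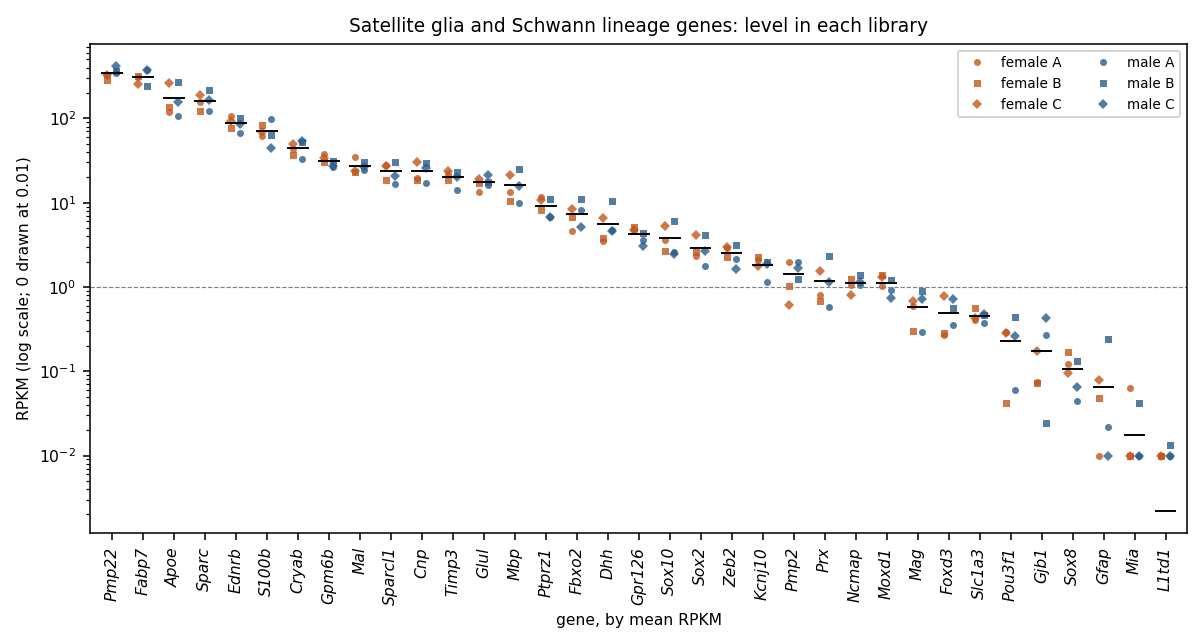
Level of each of the 35 genes in each library (RPKM, log axis; a listed 0 is drawn at 0.01), with female libraries left of male libraries and a bar at the mean of the 6. Genes run from Pmp22, at a mean of 346 RPKM, down to L1td1, whose only read was in male B and whose mean lies below the drawn zeros.

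Sox10 (ENSMUSG00000033006, chromosome 15, 79154913 to 79164490, minus strand) had 9.83, 7.29 and 14.2 CPM in the female libraries (A, B, C in turn) and 7.13, 16.6 and 6.60 CPM in the male libraries. These rest on 156, 178 and 339 reads in the female libraries and 156, 397 and 98 reads in the male libraries. Male B and female C were highest, male C was lowest, and the sexes overlapped. Zeb2, a zinc finger repressor that Schwann cells need to differentiate and that neurons also use, had 57.2, 44.2 and 59.2 CPM in females and 42.4, 61.7 and 32 CPM in males. It put the 6 libraries in exactly the order that Sox10 did. Sox2, which keeps precursors immature, had 4.73, 5.28 and 8.52 CPM in females and 3.66, 8.56 and 5.45 CPM in males, again highest in male B and female C. Foxd3, a crest and satellite glia factor, and Pou3f1, the promyelinating POU factor also called Oct6, were near the limit of detection, with 10 to 43 reads and 4 to 41 reads per library. Sox8 had 3 to 13 reads per library.

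Among signalling and surface proteins, Ednrb, the endothelin receptor of crest and glial cells, was highest per length, at 106, 77.6 and 94.1 RPKM in females and 66.4, 101 and 84.7 RPKM in males. Its highest and lowest libraries differed 1.60-fold. Dhh, the hedgehog ligand that Schwann cells send to the perineurium, had 8.32, 9.09 and 15.7 CPM in females and 11.3, 24.6 and 10.9 CPM in males. Here male B stood above the other 5 libraries. Ptprz1, a receptor phosphatase of glial precursors, had 93.3, 66.8 and 87.6 CPM in females and 54.3, 90.5 and 54.3 CPM in males, with female A, male B and female C high. Gpr126, the adhesion receptor that Schwann cells need to start myelination, had 30.9, 33.2 and 30.6 CPM in females and 23.7, 28.3 and 19.9 CPM in males. Every female library was above every male library. Gpm6b, a membrane proteolipid shared by neurons and glia, spanned 149 to 209 CPM, a 1.4-fold range.

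The sheath genes did not move as one. Pmp22, a membrane protein of compact myelin, was both the most abundant gene on the list and among the steadiest: 777, 674 and 780 CPM in females and 809, 865 and 982 CPM in males, a 1.46-fold range in which every male library lay above every female library. Mbp, the myelin basic protein (or golli, from the same locus), had 113, 88.9 and 178 CPM in females and 83.1, 211 and 132 CPM in males. Prx, the periaxin that anchors myelin to the matrix, had 4.54, 3.77 and 8.65 CPM in females and 3.20, 13.0 and 6.33 CPM in males, and ranked the 6 libraries in the same order as Mbp: male B, female C, male C, female A, female B, male A. Mag, the adhesion molecule of the inner sheath, ran 1.19 to 3.63 CPM with the same 2 libraries, female B and male A, at the bottom. Cnp, a phosphodiesterase of the myelin cytoplasm, had 70.5, 68.2 and 109 CPM in females and 62.9, 108 and 94.9 CPM in males. It shares 154 exon bases with Dnajc7 on the other strand, a gene with 3759 to 5682 reads per library, and no source used here says whether counting used strand. Prx likewise shares 300 exon bases with Gm15541, which had at most 8 reads, and Glul 116 bases with Teddm2, which had at most 32 reads.

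Mal, a proteolipid of sheath membranes, ranged between 65.1 and 95.9 CPM and was highest in female A. Ncmap, a noncompact myelin protein, ranged between 1.81 and 3.05 CPM. Pmp2, the lipid binding protein of myelin, had 2.71, 1.39 and 0.840 CPM in females and 2.70, 1.71 and 2.29 CPM in males, so that it was lowest in female C. Gjb1, the connexin of myelinating Schwann cells, had 1 to 11 reads per library. Pmp22 thus stood at 346 RPKM beside 16 RPKM for Mbp, 1.18 RPKM for Prx and 0.174 RPKM for Gjb1.

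Of the satellite glia genes, Fabp7 had 383, 401 and 316 CPM in females and 464, 301 and 465 CPM in males. Female C and male B, where most listed genes that varied were high, were its 2 lowest libraries. Apoe, the lipid carrier secreted by glia, had 238, 267 and 522 CPM in females and 214, 531 and 308 CPM in males, so female C and male B lay well above the other 4. S100b, the calcium binding protein used to label Schwann cells and satellite glia and present in some sensory neurons, had 90.8, 124 and 103 CPM in females and 145, 93.1 and 66.6 CPM in males. Its highest library was male A and its lowest male C, an order unlike that of Sox10 or Fabp7. Glul, which turns glutamate into glutamine, ranged between 44.6 and 71.0 CPM, and Kcnj10, the inward rectifier channel of satellite glia, between 6.13 and 12.2 CPM. Slc1a3, the glial glutamate transporter GLAST, stayed between 3.20 and 4.75 CPM, or 0.452 ± 0.0636 RPKM (SD, n = 6 libraries). Cryab, a small heat shock protein, ranged between 38.6 and 64.8 CPM and Fbxo2, an F-box protein that binds glycoproteins, between 5.99 and 14.4 CPM. Gfap, the intermediate filament of reactive glia, had 0, 5 and 8 reads in females and 2, 24 and 0 reads in males; 0 reads allows up to 0.19 CPM in female A and 0.191 CPM in male C, counting error only.

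Among secreted proteins, Sparc, a matrix glycoprotein, had 529, 407 and 631 CPM in females and 407, 723 and 563 CPM in males. Its relative Sparcl1 had 86.8, 57.8 and 85.7 CPM in females and 51.9, 95.2 and 64.1 CPM in males. Timp3, a metalloproteinase inhibitor held in the matrix, had 176, 150 and 194 CPM in females and 115, 191 and 166 CPM in males, and shares 1733 exon bases with Syn3 on the other strand (267 to 455 reads). All 3 were lowest in male A. Moxd1, a monooxygenase, ranged between 2.36 and 4.46 CPM. L1td1 had 1 read, in male B, and Mia had 1 read each in female A and male B.

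**Figure D2:**
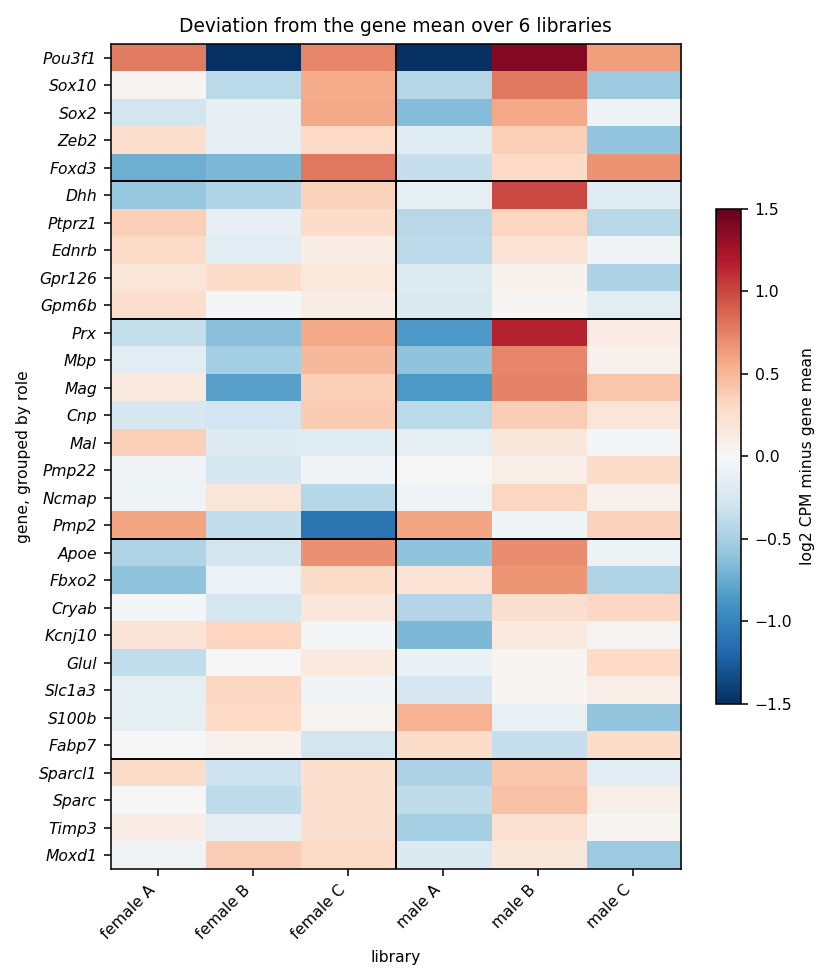
Log2 CPM of each of the 30 tested genes minus its own mean over the 6 libraries, female libraries left of male libraries, genes grouped by role and ordered by slope on Sox10 within each role; colours saturate at the ends of the scale. Female C and male B are red for the lineage factors and for Prx, Mbp, Mag and Cnp and blue for Fabp7, while Pmp22, Glul and Slc1a3 stay pale.

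The first comparison was sex, the contrast the labels name. None of the 30 tested genes was called between female and male libraries by edgeR's quasi-likelihood test at a Benjamini-Hochberg adjusted p below 0.05, where 5 of 15026 genes (0.0333%) were, 1 higher in females (0.00666%) and 4 higher in males (0.0266%). DESeq2 and limma-voom also called 0 of the 30, and 0 had an unadjusted p below 0.05 where 166 of all genes did. The lowest unadjusted p among the 30 belonged to Gpr126, with 31.6 ± 1.42 CPM in females and 24.0 ± 4.18 CPM in males (SD, n = 3 each) and a log2 difference, female over male, of 0.40 ± 0.19 (SE); its edgeR adjusted p was 1 and 0.782 to 1 under the alternatives. Pmp22 averaged 744 ± 60.4 CPM in females and 886 ± 88.3 CPM in males (SD, n = 3 each), a log2 difference of -0.25 ± 0.15 (SE) with an edgeR adjusted p of 1. Gpr126 was the only gene of the 30 with every female library above every male library, and Pmp22 the only one with the opposite; among all tested genes 3.17% and 2.53% had these patterns, so 1 of 30 (3.33%) each way was near the background. Sox10 itself averaged 10.5 ± 3.51 CPM in females and 10.1 ± 5.61 CPM in males (SD, n = 3 each), a log2 difference of 0.04 ± 0.39 (SE).

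The second comparison asked which of the other 29 tested genes followed Sox10 from library to library. A slope was fitted across all 6 libraries, as the log2 change of a gene for each log2 unit of Sox10. No gene of the 29 was called by edgeR at an adjusted p below 0.05, against 130 of 15025 genes (0.865%) with positive and 1 (0.00666%) with negative slopes. At an unadjusted p below 0.05, 12 of the 29 (41.4%) had positive slopes, where 10.6% of all genes did, and 1 (3.45%), Fabp7, had a negative slope, where 6.39% did. In sign, 22 of the 29 (75.9%) were positive, against 48.7% of all genes, and the median slope was 0.35 against -0.01. limma-voom called 0 of the 29, among 196 of all genes. DESeq2 called 5, among 600 of all genes: Apoe, Mbp, Prx and Dhh with positive slopes and Fabp7 with a negative slope.

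Apoe had a slope of 0.84 ± 0.19 (SE, edgeR adjusted p = 0.0799) and Mbp a slope of 0.78 ± 0.19 (SE, adjusted p = 0.0948). Fabp7 followed at -0.47 ± 0.12 (SE, adjusted p = 0.101), Prx at 1.11 ± 0.29 (SE, adjusted p = 0.109) and Dhh at 0.85 ± 0.23 (SE, adjusted p = 0.125). The other 8 genes with an unadjusted edgeR p below 0.05 were Sox2, Zeb2, Pou3f1, Ptprz1, Cnp, Sparc, Sparcl1 and Timp3, with slopes between 0.35 (Timp3) and 1.36 (Pou3f1). By role, this held for 3 of 4 other lineage factors, 2 of 5 surface proteins, 3 of 8 sheath genes, 3 of 4 secreted proteins and, among 8 satellite glia genes, Apoe alone with a positive slope. Slopes of Pmp22 (-0.01 ± 0.14), Glul (-0.02 ± 0.18), Slc1a3 (-0.06 ± 0.24), S100b (-0.14 ± 0.25) and Ncmap (-0.01 ± 0.28) lay within 1 SE of 0.

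**Figure D3:**
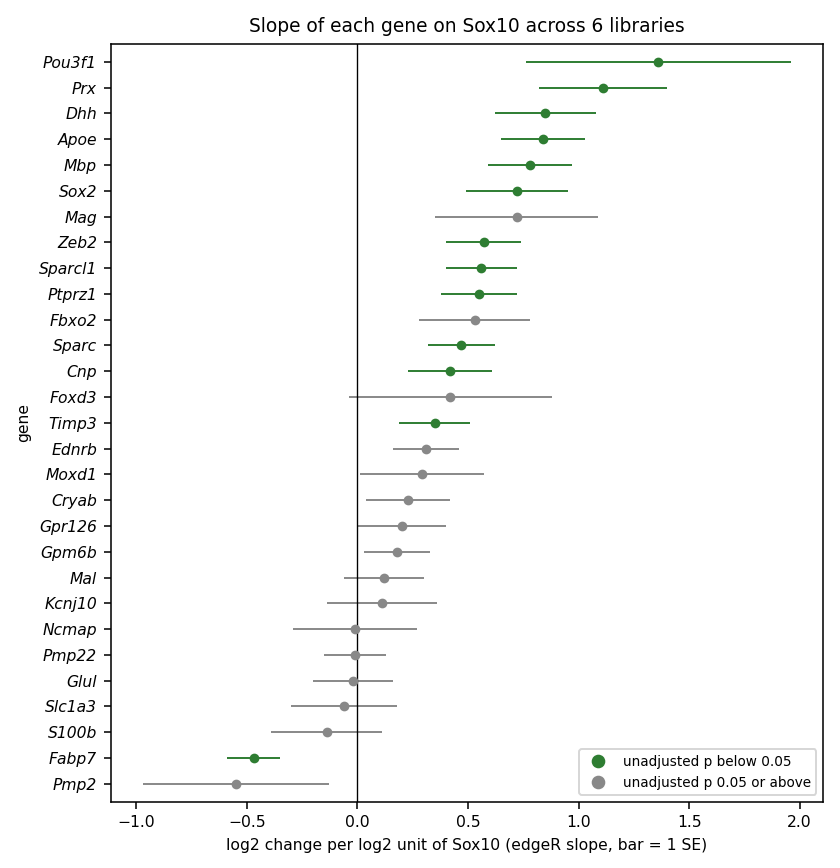
Slope of each of the 29 other tested genes on Sox10 across 6 libraries (edgeR, log2 per log2; bars are 1 SE), with the 13 genes at an unadjusted p below 0.05 in green. Slopes run from -0.55 for Pmp2 to 1.36 for Pou3f1, and no gene passed an adjusted p of 0.05.

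The number of genes called depended on which libraries were kept. Slopes of the genes at an unadjusted p below 0.05 kept their sign with any 1 library left out. Apoe ranged between 0.74 and 1.06 and Fabp7 between -0.48 and -0.44, while Dhh fell to 0.46 without male B. Without female A the edgeR fit called 2 of the 29 genes (Apoe and Dhh) among 528 of all genes, and without male C it called 5 (Apoe, Mbp, Prx, Sparc and Cnp) among 308 of all genes. Without any one of the other 4 libraries it called 0 of the 29. Female C and male B together were the 2 highest libraries for 11 of the 30 tested genes (36.7%), against 20.0% of all genes, and their likeness was a property of the whole libraries, as given above. Correlations with Sox10 were therefore taken with and without these 2 libraries, which were also the farthest from the median of Sox10. In the 4 libraries left, Sox10 spanned only 6.60 to 9.83 CPM, highest in female A and at most 7.29 CPM in the others. The r over these 4 thus depends largely on whether a gene is high or low in female A.

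For Zeb2, Ptprz1 and Sparcl1 the r over the 4 libraries left was also high; these values are a description, since 4 libraries allow no useful test and the genes were picked by r over the same libraries. Zeb2 correlated with Sox10 at r = 0.88 (rho = 1, exact two-sided permutation p = 0.0181 for r and 0.00278 for rho, n = 6 libraries) and at 0.92 over the 4 libraries left. Ptprz1 gave r = 0.85 (rho = 0.83, exact permutation p = 0.0458 and 0.0583) and 0.96 without them. Sparcl1 gave r = 0.88 (rho = 0.77, exact permutation p = 0.0472 and 0.103) and 0.82 without them. These were the only positive correlations of the 29 (10.3%) with an exact permutation p below 0.05, where 5.80% of all genes had one. Of those 871 genes, 17.8% had an r of at least 0.8 without female C and male B. Gpm6b had a weaker r of 0.55 (rho = 0.71, exact permutation p = 0.265 and 0.136) and 0.94 over the 4 libraries, and Ednrb gave 0.69 (rho = 0.66, exact permutation p = 0.143 and 0.175) and 0.76.

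Fabp7 ran the other way. Its r with Sox10 was -0.97 (rho = -1, exact permutation p = 0.00139 for r, the smallest that 720 pairings can give, and 0.00278 for rho) and -0.81 without female C and male B. It was the only negative correlation of the 29 at an exact permutation p below 0.05, where 5.91% of all genes had one. A negative trend was not particular to Fabp7. Of 12 nociceptor genes, 8 had negative and 4 positive slopes on Sox10, with a median r of -0.46, and 2 had a negative r at that p. Pan-neuronal genes had 5 slopes of each sign and a median r of -0.04. Adjusted over all 15026 genes, Sox10 itself among them, the exact permutation p-values were 0.337 for Fabp7, 0.409 for Zeb2 and 0.410 for Ptprz1 and Sparcl1. None passed the correction.

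For several genes r fell or changed sign without the pair of libraries, where little of the Sox10 range was left. Apoe gave r = 0.84 (rho = 0.60, exact permutation p = 0.0542 and 0.242) with all 6 libraries and -0.43 without female C and male B. Dhh gave 0.79 (rho = 0.49, exact permutation p = 0.0597 and 0.356) and then -0.82. Mbp gave 0.85 (rho = 0.66, exact permutation p = 0.05 and 0.175) and then 0.07, and Prx gave 0.83 (rho = 0.66, exact permutation p = 0.0528 and 0.175) and then -0.11. Over the 29 genes the median r was 0.63 with all libraries and 0.07 without the pair, with the sign kept in 20 of 29 (69.0%). Over all genes the medians were 0.02 and 0, with the sign kept in 49.7%.

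**Figure D4:**
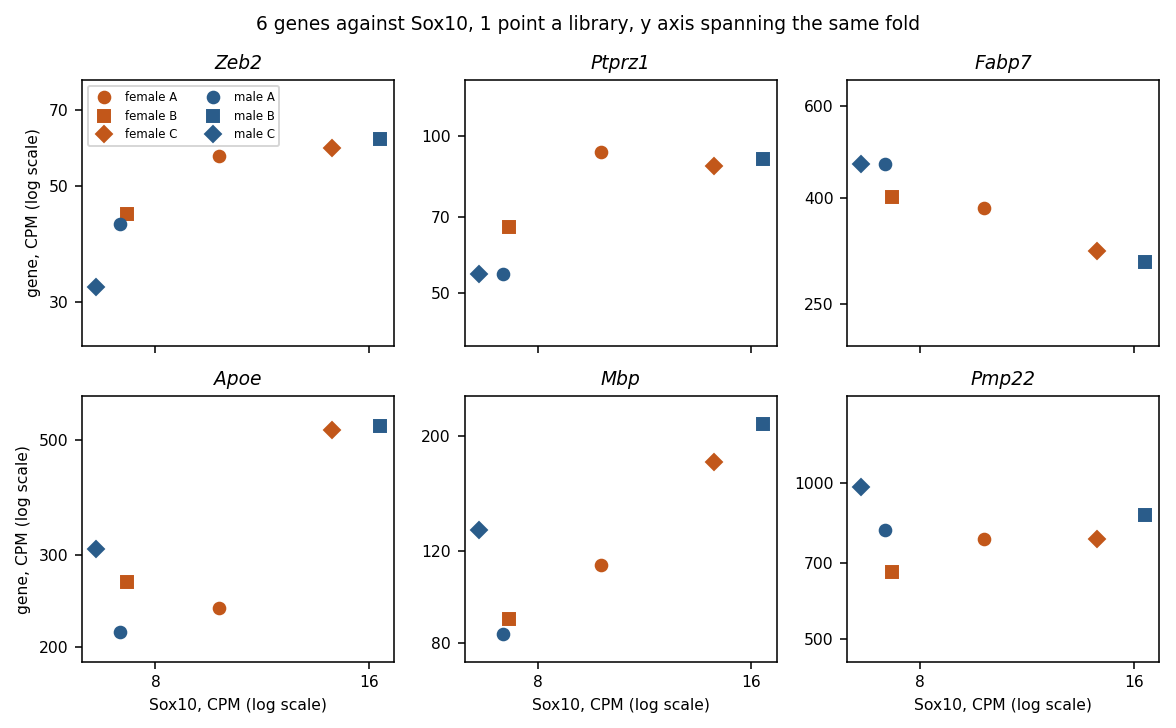
CPM of 6 listed genes against CPM of Sox10 (both log axes, 1 point a library, y axes spanning the same fold; female libraries orange, male libraries blue). Zeb2 climbs and Fabp7 descends along the whole range, Apoe is high only in female C and male B (522 and 531 CPM), and Pmp22 shows no trend.

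Base composition moved along the same axis. Across tested genes the Spearman correlation between a gene's GC content and its r with Sox10 was 0.42, a description over genes that are not independent replicates. Sox10 (61.8% GC), Apoe (59.5%) and Prx (57.7%) are GC-rich, Zeb2 (40.6%), Ptprz1 (44.5%) and Fabp7 (42.6%) are not. With a GC trend taken out of each library, a step added after the data were seen, r with Sox10 was -0.95 for Fabp7 (exact permutation p = 0.00278), 0.84 for Ptprz1 (p = 0.0722), 0.79 for Sparcl1 (p = 0.0889), 0.71 for Zeb2 (p = 0.136) and 0.51 for Apoe (p = 0.308). The exact permutation p thus stayed below 0.05 for Fabp7 and for none of the positive genes, where 3.46% of all genes had a positive r that passed, and the median r of the 29 genes was 0.46 against -0.03 over all genes.

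Several fibroblast and meningeal genes were also on this axis, so the trend was not particular to glial genes. Of the 8 tested genes of that list, 6 had positive slopes on Sox10 and 2 negative ones. The median slope was 0.92, against 0.35 for the 29 glial genes. At an unadjusted p below 0.05, 5 of the 8 had positive slopes, where 10.6% of all genes did, among them Igf2 (0.98) and Fbln1 (1.29). Col1a1, Col1a2 and Col3a1, the chains of fibrillar collagen, were called with slopes of 1.34, 0.87 and 1.29 (edgeR adjusted p = 0.0285, 0.0259 and 0.0211). They were 3 of the 8 tested genes of that list, where 0.865% of all genes were called with positive slopes. Col1a1 had 57.2, 30.0 and 85.3 CPM in females and 40.9, 150 and 49.5 CPM in males. The most abundant of the list, Dcn, had a slope of -0.18, Lum one of 0.05 and Pdgfra one of -0.09. A positive r with Sox10 at an exact permutation p below 0.05 was held by 3 of the 8, against 5.80% of all genes. With the GC trend removed it was held by 0 of the 8, against 3.46% of all genes. Twist1 and Dpt, with 0 to 4 reads per library, were too low for the test and have no slope. The summed fibroblast list ranged between 446 and 615 CPM in females and between 462 and 757 CPM in males, with male B highest. Red blood cell genes summed to 1020 CPM in male A, against 34.7 to 185 CPM in the other libraries, and male A was the lowest library for 14 of the 30 tested glial genes (46.7%), against 14.9% of all genes. The part of fibroblasts and of red blood cells in the glial slopes was not tested.

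The third comparison set the genes against Scn10a, the gene whose locus drives Cre, at 626, 748 and 838 CPM in females and 642, 860 and 859 CPM in males. No listed gene, and 0 of 15025 genes (0%), was called by edgeR at an adjusted p below 0.05; limma-voom called 0 of the 30 and DESeq2 4, among 0 and 1279 of all genes. At an unadjusted edgeR p below 0.05, 10 of the 30 (33.3%) had positive slopes and 0 had negative ones, where 13.0% of all genes had positive slopes. Most of these genes also had positive slopes on Sox10 at that p: Apoe (2.32 ± 0.56 on Scn10a, SE), Prx (3.03 ± 0.86), Mbp (1.91 ± 0.59), Sox2, Dhh, Cnp and Sparc. Foxd3, Glul and Cryab had them on Scn10a only. Zeb2, Pou3f1, Ptprz1, Sparcl1 and Timp3 had them on Sox10 only. The 2 axes thus did not separate the listed genes cleanly. Leaving out male C raised the edgeR calls to 6 of the 30, among 2341 genes in all. Glul, whose slope on Sox10 was -0.02, had a slope on Scn10a of 0.93 ± 0.37 (SE, edgeR adjusted p = 0.165) and Cnp one of 1.48 ± 0.40 (SE, edgeR adjusted p = 0.0805). These were the only 2 of the 30 (6.67%) with a positive correlation with Scn10a at an exact permutation p below 0.05, against 7.91% of all genes, and 0 had a negative one, against 7.75%.

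Male C, the library of 1 embryo, was the lowest of the 6 for 6 of the 30 genes (20.0%; 22.9% of all genes): Sox10, Zeb2, Gpr126, Ptprz1, S100b and Moxd1. It was the highest for 4 (13.3%; 22.7% of all genes): Pmp22, Fabp7, Glul and Cryab. Both counts were near the background. Male C was also deposited under a later record than the other libraries, and this cannot be told apart from its pool of 1 embryo.

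A second list held 28 further glial genes, also chosen by symbol but with earlier results of these data known. Its shares are therefore a description. Of these, 26 (92.9%) had positive slopes on Sox10, against 48.7% of all genes, and 13 (46.4%) had a positive slope at an unadjusted p below 0.05, against 10.6%. edgeR called 0 of them at an adjusted p below 0.05, against 0.865% of all genes. The highest by length were Sostdc1 at 145 ± 18.3 RPKM, Cmtm5 at 40.1 ± 9.11 RPKM and Fxyd1, a regulator of the sodium pump, at 15.0 ± 4.56 RPKM (SD, n = 6 libraries). Over all genes, the 5 with the smallest p and a positive slope on Sox10 were Ncam2, Adamts1, Csrnp1, Bckdhb and Pgls (edgeR adjusted p = 0.0137 each), and those with a negative slope were Ms4a2 (0.0393), Ado (0.0529), Tma7 (0.0560), Syt6 (0.0645) and ENSMUSG00000061654 (0.0657). Pgls had 6.68, 6.80 and 72.3 CPM in females and 6.08, 68.8 and 6.93 CPM in males, high in female C and male B alone.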

How the data were processed

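Total RNA of FACS-sorted cells was reverse transcribed and amplified with the SMARTer ultra-low input kit, per the labels' protocols. Counts per gene are whole numbers deposited by the authors, made with featureCounts 1.4.5 of Subread on GRCm38.p2, per the submitters' processing notes; the deposited CPM and RPKM equal these counts rescaled. The aligner and the strand setting: not given in the sources used here. Symbols were found for 97.26% of the IDs. Genes were kept by filterByExpr and fitted with edgeR 4.0.16 (TMM, quasi-likelihood, R 4.3.3) over all libraries: on sex, on centred log2 CPM of Sox10 and on that of Scn10a (prior count 2). P-values were adjusted over all tested genes by Benjamini-Hochberg, with a threshold of 0.05. Slope errors are the coefficient divided by the root of F. Correlations used log2 CPM with exact permutation of 720 pairings. DESeq2 1.42.0 and limma 3.58.1 (voom) were alternatives, as were other scalings, filters and axes and each library left out. The GC trend was a lowess fit (span 0.3) within each library. Nothing in the labels says whether pools shared litters, so p-values measure the spread between these pools, and intervals and floors cover counting error only.

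Some further glial genes, not named here, and an alternative axis set on one of them are not reported here. All 35 genes were named. The rule also named the 3 highest by RPKM of each other list and any called; this was followed for the glial and fibroblast lists, while the other lists are given by their sums or medians, and those under the other observations were picked with their values in view. The genes, lists and tests were chosen with earlier results of these data known.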

Additional observations from a re-analysis of the deposited data

How the results depend on the processing

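With 6 libraries, a slope or correlation is bounded only loosely, and genes under about 100 reads per library (Foxd3, Pou3f1, Pmp2, Mag, Ncmap) more loosely still. Sex calls among the listed genes were 0 under every alternative; over all genes they were 5 in the reported fit, 7 with DESeq2, 6 with limma-voom and 12 with no filter, and 5 under the other alternatives. For the slope on Sox10 (0 listed genes, 131 of all genes), the counts were 2 and 318 with no filter, 5 and 600 with DESeq2, and 2 and 369 at an adjusted p of 0.10. Over all genes they were 0 with Erbb3 as the axis and 0 with the GC trend removed. Leaving out 1 library gave 0 to 5 listed genes and 0 to 528 of all genes; it was 0 of all genes without female C, without male A or without male B. For Scn10a (0 and 0) the counts were 4 and 719 with no filter, 4 and 1279 with DESeq2, 3 and 1161 at an adjusted p of 0.10, and 243 of all genes with upper-quartile factors; leaving out 1 library gave 0 to 6 listed genes and 0 to 2341 of all genes. The 3 positive correlations with Sox10 became 1 by Spearman rho, 0 with the GC trend removed, and 0 to 6 with 1 library left out.

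The library letters did not pair the samples: same-letter deviations correlated at 0.28 (A), -0.29 (B) and -0.08 (C). With the letter as a replicate block, 1 listed gene (Apoe) among 143 of all genes was called on Sox10, and 0 listed genes among 2 of all genes on Scn10a.

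With Fabp7 as the axis, itself negative on Sox10, slopes turned negative: Apoe -1.77, Mbp -1.54, Prx -2.22, Dhh -1.61, Sparcl1 -1.13, Zeb2 -1.18, Ptprz1 -1.2, Sparc -0.9, Sox2 -1.58, Cnp -0.84, Pou3f1 -2.51 and Timp3 -0.78. Fabp7 correlated with Sox10 at r = -0.97 and rho = -1, so this change of sign follows from the choice of axis and is not a separate result. The count of genes at 1 RPKM or more and the count lowest in male C held under every alternative run, within 1.5 times.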

Other observations

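Several of the further glial genes followed Sox10 across libraries. The list was drawn up with earlier results of these data known, and the genes named here and Egr2 were chosen after their values were seen. Of these 28 genes, 8 (28.6%) had a positive r with Sox10 at an exact permutation p below 0.05, where 5.80% of all genes had one, and 5 (17.9%) did with the GC trend removed, where 3.46% of all genes did. A negative r at that p was held by 1 gene, Drp2 (r = -0.82, exact permutation p = 0.0431), where 5.91% of all genes had one. Others did not follow Sox10, among them Cdh19 (r = 0.14) and Ugt8a (r = 0.03). Hes1, a Notch target, had 11.2, 8.15 and 12.8 CPM in females and 8.55, 16.2 and 8.62 CPM in males, with r = 0.98 (rho = 0.77, exact permutation p = 0.00833 and 0.103) and 0.92 without female C and male B. Fxyd1 had 11.2, 7.12 and 14.6 CPM in females and 8.41, 14.3 and 8.21 CPM in males, with r = 0.95 (rho = 0.77, exact permutation p = 0.0153 and 0.103) and 0.84 without that pair. Erbb3, the neuregulin receptor that crest-derived glia depend on, had 38.5, 29.8 and 39.0 CPM in females and 27.4, 39.2 and 31.0 CPM in males, with r = 0.87 (rho = 0.83, exact permutation p = 0.0472 and 0.0583) and 0.86 without the pair.

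Egr2, the factor that drives myelination, was highest in male B, at 9.52, 4.01 and 20.9 CPM in females and 4.48, 31.9 and 11.6 CPM in males, and its r with Sox10 of 0.85 (rho = 0.60, exact permutation p = 0.0583 and 0.242) was 0.21 without female C and male B.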
